A study of Drosophila melanogaster with 3 samples.

Results

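Aminoacyl-tRNA synthetase genes were the 35 protein-coding genes, of 13986 in the Release 6 annotation of *Drosophila melanogaster*, whose symbol is an amino acid code followed by RS, with or without the suffix -m, together with GluProRS and the genes whose symbol holds PheRS. They comprised 20 genes without the suffix, called cytoplasmic here, and 15 with it, called mitochondrial. The measurement was ChIP-seq (chromatin immunoprecipitation followed by sequencing), carried out on whole embryos of mixed sex aged 0 to 24 h. The embryos came from 1 transgenic line, stable for a fusion of GFP to the C-terminal end of a fly protein. The labels call that protein by 3 names, CG45071, CG6854 and CTPsyn, the last being CTP synthase, the enzyme that makes the nucleotide CTP. An anti-GFP antibody is named in the description of each sample, whereas the antibody field reads CG6854. The series had 1 group of 3 biological replicates and no untreated or untagged group, and the driver of the fusion gene was not given in the sources used here. All 3 replicates shared the line, the age range and the fusion, so the comparisons are between classes of genes and between replicates.

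An aminoacyl-tRNA synthetase joins an amino acid to its transfer RNA, and the charged tRNA then carries that amino acid to the ribosome. Flies, like other animals, make most of these enzymes in a cytoplasmic and a mitochondrial form from separate nuclear genes, and the mitochondrial form is imported. Some genes without the suffix can serve both compartments, as is known for the glycine and lysine enzymes of mammals, so the split used here follows the gene symbol and not a measured location. The rule found no gene with the suffix for glycine, histidine, lysine, threonine or glutamine. GluProRS joins the glutamate and the proline enzyme in a single protein, and the phenylalanine enzyme of the cytoplasm is built from the subunits alpha-PheRS and beta-PheRS. In mammals several cytoplasmic synthetases are held together with scaffold proteins in the multisynthetase complex.

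The deposited peak lists differ in how deep they go. The optimal list, which the authors derived from the replicate and pooled lists, held 3545 peaks, and the pooled list and each replicate list held 30000. On dm6 the optimal peaks were exactly the 3545 strongest peaks of the pooled list. The signal of a peak, as the authors' caller gave it, reached down to 113.685 in the optimal list and to 30.9714 in the pooled list. Lists of fixed length include weak peaks, and the submitters label the pooled and replicate lists as peaks and background. Entries below the optimal limit may therefore not be binding sites. No alignment or control library was analysed here, so depth is unknown. Ranks within a list (rank 1 is the strongest signal) were therefore used, and a gene was counted when the summit of a peak lay within 500 bp of any of its annotated transcription start sites (TSSs).

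Sequences from the stretches where the results turn are printed here, 5′ to 3′ on the strand of the synthetase gene, from the RefSeq copy of the Release 6 (dm6) assembly. The first 4 are centred on the strongest pooled summits of IleRS (chr3L:22288383-22288583, plus strand), ThrRS (chr2L:12103416-12103616, plus strand), ArgRS-m (chr3R:7886880-7887044, plus strand) and GluProRS (chr3R:23958392-23958544, minus strand), the last 2 cut short where an annotated exon begins. The other 2 are the 100 bp before the TSS of IleRS-m (chr3L:16100180-16100279, plus strand), which had no promoter summit in any list, and of ArgRS (chrX:15844146-15844245, minus strand), a promoter with a full DNA replication-related element (DRE). Capitals mark matches, on either strand, to the DRE (TATCGATA), to its core CGATA, to the E-box CAGCTG or to the TATA box TATAAA.
IleRS: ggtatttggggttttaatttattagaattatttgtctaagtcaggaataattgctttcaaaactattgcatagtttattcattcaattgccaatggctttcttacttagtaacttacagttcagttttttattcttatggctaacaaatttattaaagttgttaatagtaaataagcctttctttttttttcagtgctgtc
ThrRS: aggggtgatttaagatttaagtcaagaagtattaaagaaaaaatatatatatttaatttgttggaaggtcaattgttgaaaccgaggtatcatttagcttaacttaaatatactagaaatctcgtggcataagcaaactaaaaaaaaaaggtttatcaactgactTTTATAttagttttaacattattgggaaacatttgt
ArgRS-m: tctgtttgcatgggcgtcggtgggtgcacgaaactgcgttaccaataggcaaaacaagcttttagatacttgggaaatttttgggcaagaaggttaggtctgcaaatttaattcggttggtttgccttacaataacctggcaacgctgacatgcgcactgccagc
GluProRS: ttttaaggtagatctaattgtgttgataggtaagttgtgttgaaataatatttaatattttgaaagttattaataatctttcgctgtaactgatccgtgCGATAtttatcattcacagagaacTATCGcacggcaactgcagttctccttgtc
IleRS-m: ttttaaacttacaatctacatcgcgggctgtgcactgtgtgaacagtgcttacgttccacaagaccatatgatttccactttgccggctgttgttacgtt
ArgRS: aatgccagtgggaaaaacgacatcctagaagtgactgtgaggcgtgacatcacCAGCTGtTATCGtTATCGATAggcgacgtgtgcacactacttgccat
The summit regions of IleRS and ThrRS were rich in A and T, with a GC content of 26.9% and 25.9%, against 46.7% at the ArgRS-m summit. The GluProRS stretch held the CGATA core once on each strand, ThrRS held a TATAAA on its minus strand, and the IleRS, ArgRS-m and IleRS-m stretches held none of the 4 motifs.

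Of the 35 synthetase genes, 4 (11.4%) had an optimal summit at a promoter, against 14.1% of all protein-coding genes. They were the cytoplasmic genes IleRS, SerRS and ThrRS, 3 of 20 (15%), and the mitochondrial gene ArgRS-m, 1 of 15 (6.67%). These shares lay near or below that of all protein-coding genes. Their order rested on few genes: it turned to 5% for cytoplasmic and 6.67% for mitochondrial genes when a peak had to cover the TSS, and likewise without replicate 2. Of the genes for cytoplasmic ribosomal proteins, 66 of 92 (71.7%) had an optimal promoter summit, and of those for mitochondrial ribosomal proteins 9 of 73 (12.3%).

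IleRS, the isoleucine enzyme (FBgn0027086, chr3L:22288665-22292810, plus strand), had the strongest promoter summit of all members, at rank 1085 of the pooled list with a signal of 219.07. Its rank was 1558, 924 and 1444 in replicates 1, 2 and 3, and its summit lay 124, 154 and 182 bp upstream of the TSS. All 3 replicates placed it among their strongest 3545 peaks, and no other synthetase gene met that condition. The pooled summit lay in intergenic sequence 182 bp upstream of the IleRS TSS and 288 bp from the TSS of Hem, a gene on the opposite strand that encodes a subunit of the actin regulator WAVE.

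SerRS, the serine enzyme (FBgn0031497, chr2L:3035493-3037403, minus strand), stood at pooled rank 1677 with a signal of 172.696. In replicates 1, 2 and 3 its rank was 4872, 1431 and 1328, so replicate 1 alone placed it below rank 3545. Its pooled summit, 68 bp downstream of the TSS in the 5′ untranslated region, was the only one of the 4 optimal summits inside the synthetase gene. In replicates 2 and 3 it also lay downstream, by 26 and 56 bp, and in replicate 1 it lay 119 bp upstream. CG17260 begins on the opposite strand only 8 bp from the SerRS gene, and the same summit lay 76 bp from its TSS.

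ThrRS, the threonine enzyme (FBgn0027081, chr2L:12103751-12107170, plus strand), stood at pooled rank 1739 with a signal of 169.371. Its rank was 1141, 1563 and 7007 in replicates 1, 2 and 3, and here it was replicate 3 that fell outside the strongest 3545. The summit lay 235 bp upstream of a ThrRS TSS and 231 bp from that of Patsas, a palmitoyltransferase-like gene on the opposite strand. Distance thus did not assign this summit to either gene clearly.

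ArgRS-m, the mitochondrial arginine enzyme (FBgn0037526, chr3R:7887045-7890150, plus strand), was the only mitochondrial gene in the optimal list, at pooled rank 2417 with a signal of 140.106. Its rank was 2934, 5168 and 1142 in replicates 1, 2 and 3, with replicate 2 outside the strongest 3545. The summits lay 131, 37 and 147 bp upstream of the TSS in those replicates, in the space shared with CG17816 on the opposite strand.

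The limit of the optimal list fell between these genes and AspRS, the aspartate enzyme, at pooled rank 3552 with a signal of 113.561. The ranks of its strongest summit, 3500, 2602 and 5651 in replicates 1, 2 and 3, overlapped those of SerRS, ThrRS and ArgRS-m. Counted by gene, the call on the optimal list thus separated values that the replicates did not. These AspRS summits lay 331, 130 and 36 bp upstream of an internal TSS, so they need not be the same peak. The pooled summit lay 365 bp upstream of the same TSS, in an intron of AspRS and of Nmda1, which encodes an NMDA receptor-associated protein. It was nearer to a TSS of Nmda1, 121 bp away. GluProRS followed at pooled rank 3961, with 5076 and 2316 in replicates 1 and 2. Its pooled summit lay 53 bp upstream of its outermost TSS and 207 bp from that of AP-1sigma, an adaptor subunit of clathrin-coated vesicles. In replicate 3 the strongest GluProRS summit, at rank 4835, was a different one, 123 bp upstream of an internal TSS. GlyRS, the glycine enzyme, stood at pooled rank 5128, with 4157, 4262 and 8256 in the replicates. The GlyRS summit lay 160 and 193 bp upstream of the TSS in replicates 1 and 2, but 51 bp downstream in replicate 3.

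**Figure D1:**
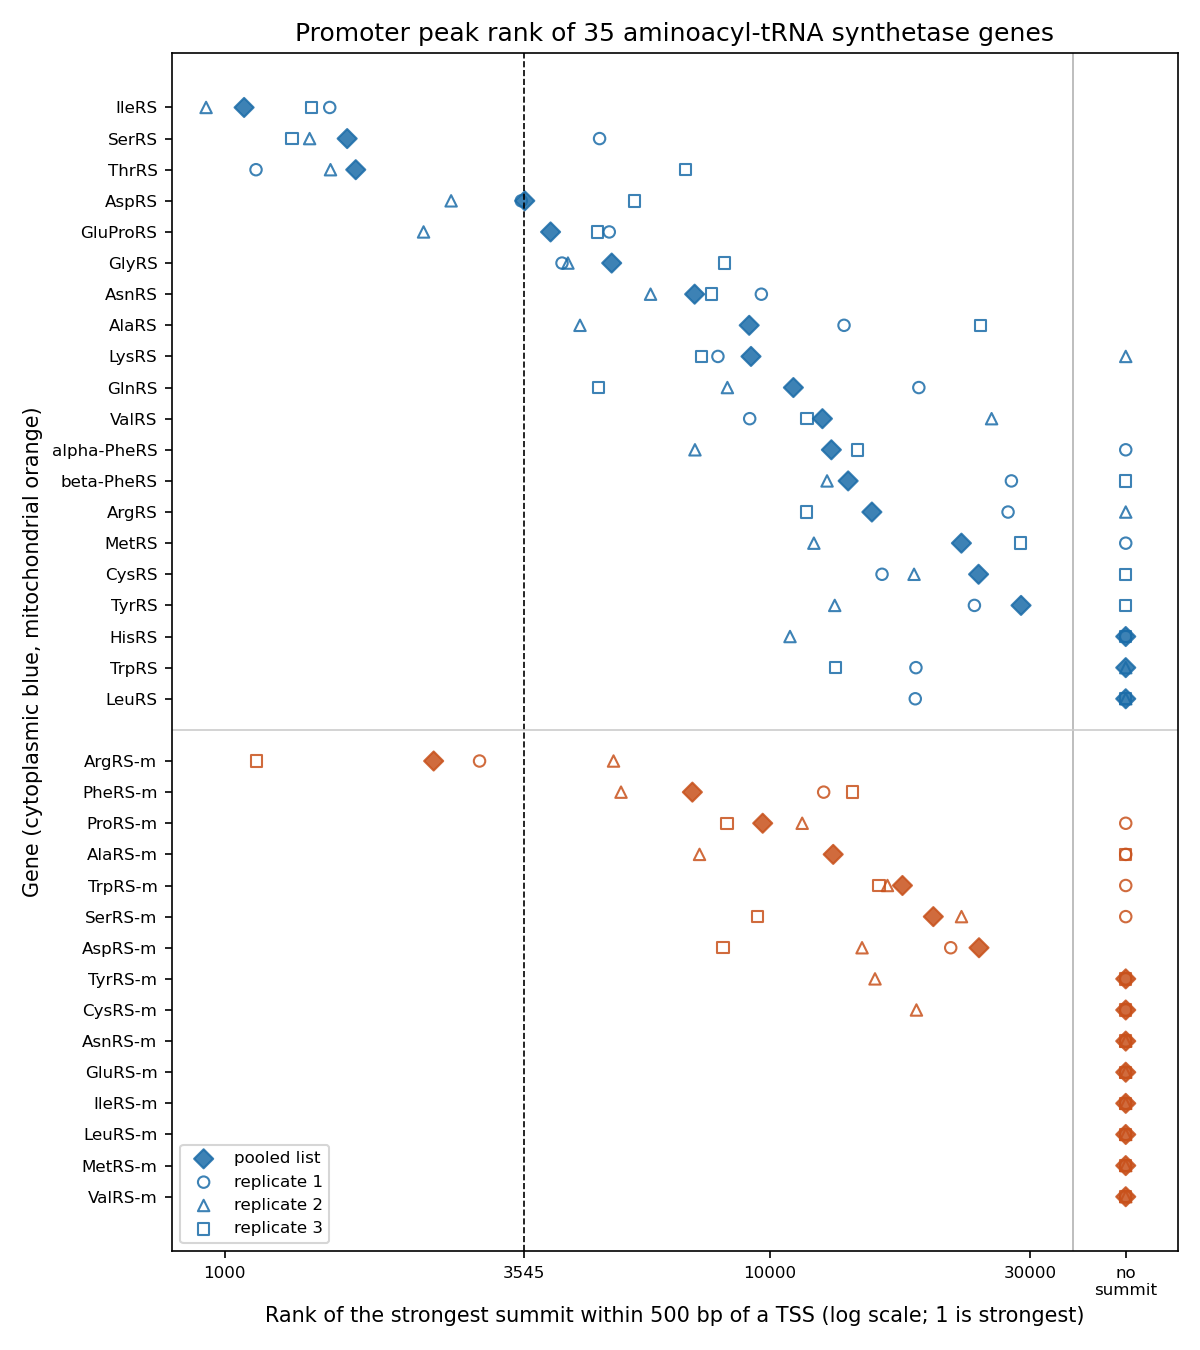
Rank of the strongest summit within 500 bp of a TSS for each synthetase gene (horizontal log axis, 1 is strongest), in the pooled list (diamonds) and in replicates 1 (circles), 2 (triangles) and 3 (squares), with cytoplasmic genes in blue above mitochondrial genes in orange. The dashed line is rank 3545, the length of the optimal list, and the column on the right holds genes without a summit in that list. IleRS alone has all its points left of the line, and 6 mitochondrial genes have all their points in the right column.

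Farther down the pooled list, which is labelled as peaks and background, the 2 classes separated. A pooled promoter summit was present at 24 of the 35 synthetase genes (68.6%), against 51.2% of all protein-coding genes. Cytoplasmic genes had one in 17 of 20 cases (85%) and mitochondrial genes in 7 of 15 (46.7%), so the first share was above and the second a little below that of all protein-coding genes. The same share was 92.4% for cytoplasmic and 74% for mitochondrial ribosomal protein genes. The cytoplasmic synthetase genes were spread over the whole list, with a median rank of 11771 when genes without a summit were placed beyond its end. The median for all protein-coding genes, found in the same way, was 28186, that for cytoplasmic ribosomal protein genes was 1161, and that for mitochondrial synthetase genes fell beyond the list.

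As the pooled list was read from the strongest peak down, the gap between the classes was wider past the optimal limit. It did not grow steadily. Among the strongest 5000 pooled peaks, 25% of cytoplasmic and 6.67% of mitochondrial synthetase genes had a promoter summit, against 18.7% of all protein-coding genes. Among the strongest 10000 the shares were 45% and 20%, against 30.7%. Among the strongest 17500 they were 70% and 26.7%, against 41.6%, and among the strongest 20000 they were 70% and 40%, against 44.1%.

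**Figure D2:**
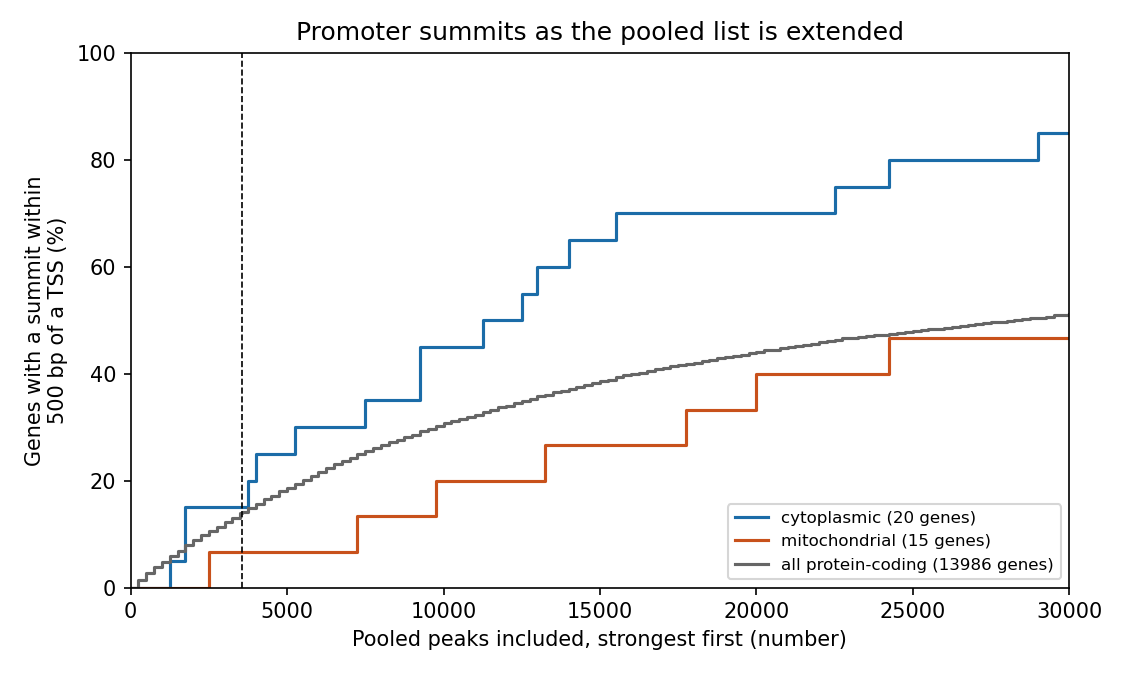
Percentage of genes with a summit within 500 bp of a TSS (vertical axis) against the number of pooled peaks included, strongest first (horizontal axis), for 20 cytoplasmic synthetase genes (blue), 15 mitochondrial synthetase genes (orange) and 13986 protein-coding genes (grey). The dashed line is the length of the optimal list, 3545 peaks. At that line the shares are 15%, 6.67% and 14.1%, and at the end of the list 85%, 46.7% and 51.2%.

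In their whole lists, replicates 1, 2 and 3 had a summit at 17, 16 and 15 of the 20 cytoplasmic genes and at 3, 9 and 6 of the 15 mitochondrial genes. The shares of all protein-coding genes in those lists were 47.6%, 52.3% and 48.8%. Cytoplasmic genes were thus above that share in every replicate, while mitochondrial genes were below it in replicates 1 and 3 and above it in replicate 2. The mean share was 80 ± 5% for cytoplasmic and 40 ± 20% for mitochondrial genes (SD, n = 3 replicates). The difference was 65, 20 and 35 percentage points in replicates 1, 2 and 3, with a mean of 40 ± 22.9 (SD, n = 3) and a two-sided p of 0.25 by an exact sign-flip permutation test. The test could not reach 0.05, since 0.25 is the smallest p that 3 replicates can give. The labels speak of biological replicates without saying how the embryo collections were kept apart, so the spread may be in part technical.

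Cut to their strongest 3545 peaks, the lists of replicates 1, 2 and 3 had a summit at 3, 5 and 2 cytoplasmic genes and at 1, 0 and 1 mitochondrial genes. All protein-coding genes had one in 14.2% of cases in each of these lists. The mean shares were 16.7 ± 7.64% for cytoplasmic and 4.44 ± 3.85% for mitochondrial genes, and their difference was 12.2 ± 11.3 percentage points (SD, n = 3; two-sided exact sign-flip permutation p = 0.25, again the smallest possible). Without replicate 2 the mean difference was 5.83 points. Only IleRS, 1 of the 35 genes, was in all 3 of the shortened lists, as were 8.69% of all protein-coding genes.

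**Figure D3:**
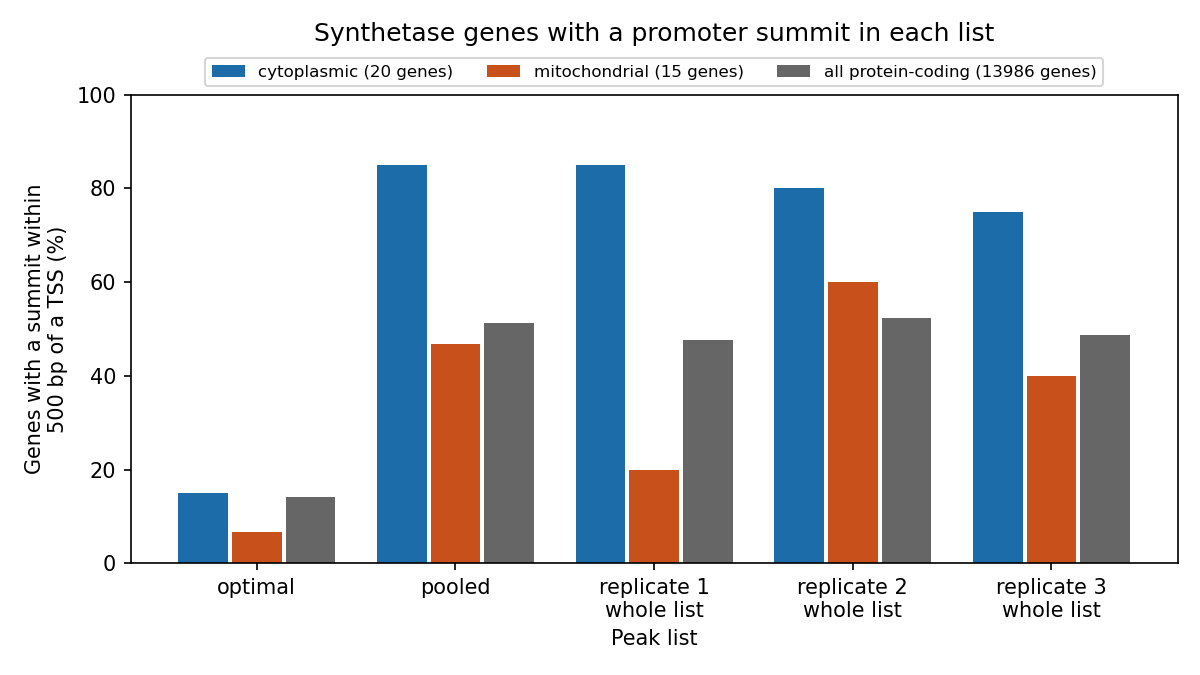
Percentage of genes with a summit within 500 bp of a TSS (vertical axis) in the optimal, pooled and 3 whole replicate lists, for 20 cytoplasmic synthetase genes (blue), 15 mitochondrial synthetase genes (orange) and 13986 protein-coding genes (grey); each bar is a share within 1 list and carries no error. Blue bars lie between 75% and 85% in the 4 long lists, and the orange bars of the replicates lie at 20%, 60% and 40%.

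Presence in every replicate gave the same order of the classes. In the whole lists of all 3 replicates, 10 of 20 cytoplasmic genes (50%) and 3 of 15 mitochondrial genes (20%) had a summit, against 33.8% of all protein-coding genes. The 3 mitochondrial genes were ArgRS-m, PheRS-m and AspRS-m. Conversely, no cytoplasmic gene lacked a summit in the pooled list and all replicate lists, whereas 6 of 15 mitochondrial genes (40%) did, against 33.8% of all protein-coding genes. These 6 were AsnRS-m, GluRS-m, IleRS-m, LeuRS-m, MetRS-m and ValRS-m. GluRS-m charges mitochondrial glutamate tRNA and, in animals, also the glutamine tRNA, whose glutamate is then amidated.

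Genes for the same amino acid were set side by side, giving 16 pairs in which GluProRS and PheRS-m each appear more than once. A gene without a summit was placed beyond the list, so a listed gene counted as stronger than an unlisted one. By this rule the cytoplasmic gene was stronger in the pooled list in 11 pairs and the mitochondrial gene in 4. In the asparagine, cysteine, glutamate, isoleucine, methionine, tyrosine and valine pairs the mitochondrial gene had no pooled summit, so no strengths were compared. LeuRS and LeuRS-m both lacked a pooled summit. In replicates 1, 2 and 3 the cytoplasmic gene was stronger in 12, 11 and 10 pairs and the mitochondrial gene in 3, 4 and 3. ArgRS-m ranked above ArgRS, and PheRS-m above both alpha-PheRS and beta-PheRS, in the pooled list and in every replicate list. This includes replicate 1 for alpha-PheRS and replicate 3 for beta-PheRS, where those genes had no summit. ArgRS stood at rank 15396 in the pooled list and at 27369 and 11688 in replicates 1 and 3, with no summit in replicate 2. The ArgRS summit lay 421 bp upstream of the TSS in the pooled list and replicate 3, but 488 bp downstream in replicate 1. PheRS-m stood at rank 7211 in the pooled list and at 12558, 5334 and 14202 in the replicates. Its summit, 330 bp upstream of the TSS, lay in the 3′ untranslated region of CtsL1, a gene for a cathepsin L protease. The tryptophan pair changed order: TrpRS-m was stronger in the pooled list and in replicate 2, and TrpRS in replicates 1 and 3. TrpRS had no summit in the pooled list and replicate 2, and TrpRS-m had none in replicate 1.

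The remaining cytoplasmic genes had their strongest pooled summits at middle and low ranks. AsnRS stood at 7281, AlaRS at 9168, LysRS at 9238, GlnRS at 11050, ValRS at 12492, alpha-PheRS at 12973 and beta-PheRS at 13926. AsnRS was steady in rank, with 9651, 6043 and 7815 in replicates 1, 2 and 3. Its summit lay 59 bp downstream of the TSS in replicate 1, but 55 and 65 bp upstream in replicates 2 and 3. The rank of AlaRS was not steady, with 13686, 4485 and 24342. LysRS had ranks of 8033 and 7493 in replicates 1 and 3 and no summit in replicate 2. MetRS, CysRS and TyrRS came last, at pooled ranks 22474, 24165 and 28913, each missing from 1 replicate. HisRS, LeuRS and TrpRS had no pooled promoter summit. HisRS had one in replicate 2 only, at rank 10893, and its nearest pooled summit lay 607 bp away, outside the window. LeuRS had one in replicate 1 only, at rank 18493.

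Among the other mitochondrial genes, ProRS-m stood at pooled rank 9706, AlaRS-m at 13074, TrpRS-m at 17518, SerRS-m at 19959 and AspRS-m at 24208. Replicate 1 listed none of ProRS-m, AlaRS-m, TrpRS-m and SerRS-m, and AlaRS-m was listed by replicate 2 alone, at rank 7432. CysRS-m and TyrRS-m had a summit in replicate 2 only, at ranks 18584 and 15600. LeuRS-m lay just outside the rule: its nearest pooled summit was 731 bp from the TSS, and its nearest optimal summit, of rank 291, was 952 bp away. On the cytoplasmic side GlyRS had an optimal summit 922 bp from its TSS, at rank 3032, and ValRS was just inside the window, 490 bp from its TSS and 23 bp from that of Kdm4B, a histone demethylase gene.

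Among the 20 cytoplasmic genes, 8 encode enzymes that belong to the multisynthetase complex of mammals: GluProRS, IleRS, LeuRS, GlnRS, LysRS, MetRS, ArgRS and AspRS. This grouping was made after the values were seen. Of these 8 genes, 7 (87.5%) had a pooled and 1 (12.5%) an optimal promoter summit, against 10 (83.3%) and 2 (16.7%) of the 12 others. The shares of all protein-coding genes were 51.2% and 14.1%. The median pooled rank of the 8 was 10144, against 12732.5 for the others. This gap was small beside a range that ran from rank 1085 to no summit within the 8. The medians were 13263 against 14878 in replicate 1 and 6572 against 13841 in replicate 3. In replicate 2 the order turned, with 10205 against 9091.5. Among the genes for the scaffold proteins of the complex, AIMP2 stood at pooled rank 21882 and at rank 9343 in replicate 1, with no summit in the other replicates. AIMP1 had a summit only in replicate 2, at rank 10094, and AIMP3 had none in any list. Among the genes that complete mitochondrial charging, GatA, a subunit of the amidotransferase that makes glutaminyl-tRNA, had an optimal summit at rank 1725, with ranks of 8136, 2362 and 968 in replicates 1, 2 and 3. Its partner GatB stood at pooled rank 21343 and GatC had no summit in any list. Slimp, a mitochondrial protein of flies related to seryl-tRNA synthetase, stood at pooled rank 13940.

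The substrates of the enzymes were also counted. Of 290 nuclear tRNA genes, 43 (14.8%) had an optimal summit within 500 bp, against 14.1% of all protein-coding genes, and 176 (60.7%) a pooled summit, against 51.2%. Optimal summits lay at 3 of 11 isoleucine, 4 of 20 serine, 1 of 17 threonine and 3 of 26 arginine tRNA genes, the amino acids of the 4 synthetase genes on the optimal list. None of the 19 lysine and none of the 10 asparagine tRNA genes had one, although 9 of the lysine and all 10 of the asparagine tRNA genes had a pooled summit. These are counts of genes and not of distinct summits, so a summit near several tRNA genes was counted for each.

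Most of the strongest pooled summits of both classes lay upstream of the TSS. At some genes the side changed between replicates, so it was not resolved there. At AlaRS the summit lay 51 bp downstream in replicate 1, and 45 and 54 bp upstream in replicates 2 and 3. Of the 24 strongest pooled summits, 18 (75%) lay upstream of the TSS, 13 of 17 at cytoplasmic and 5 of 7 at mitochondrial genes, against 63.3% for all protein-coding genes with a pooled summit. The median position was 58 bp upstream for the 24 genes, 63 bp upstream for the cytoplasmic, 53 bp upstream for the mitochondrial and 70 bp upstream for all protein-coding genes. Of the 4 optimal summits, 3 lay upstream, against 75.5% over all protein-coding genes with one. Downstream summits in coding exons were seen at MetRS, TyrRS and AlaRS-m, 180, 397 and 134 bp past the TSS.

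The classes also differed in what lies next to them, which is a property of the annotation. Among cytoplasmic genes 17 of 20 (85%), and among mitochondrial genes 7 of 15 (46.7%), had a protein-coding TSS on the opposite strand within 1000 bp upstream, against 35.2% of all protein-coding genes. Over all protein-coding genes a pooled promoter summit was present in 67.9% with such a neighbour and in 42.1% without. Among synthetase genes with such a neighbour, 14 of 17 cytoplasmic (82.4%) and 3 of 7 mitochondrial genes (42.9%) had a pooled summit. Among those without it, all 3 cytoplasmic and 4 of 8 mitochondrial genes did. The order of the classes was therefore the same in both groups, each with few genes.

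A divergent neighbour also means that a summit may belong to either gene. The strongest pooled summit was within 500 bp of a TSS of another protein-coding gene at 16 of 24 synthetase genes (66.7%), 13 of 17 cytoplasmic and 3 of 7 mitochondrial, against 38% of all protein-coding genes with a pooled summit. At LysRS the summit was 1 bp from the TSS of Hecw, a ubiquitin ligase gene, and at ArgRS it was 71 bp from that of CG8578. Counting a summit only for the protein-coding gene with the nearest TSS left 13 of 20 cytoplasmic (65%) and 7 of 15 mitochondrial genes (46.7%) with a pooled summit, against 44.3% of all protein-coding genes under the same rule. The difference between the class shares was then 18.3 instead of 38.3 percentage points. Genes with several TSSs have more chances to be counted, and 7 cytoplasmic (35%) and 2 mitochondrial genes (13.3%) had more than 1, against 26.5% of all protein-coding genes. Among genes with 1 TSS, 10 of 13 cytoplasmic (76.9%) and 6 of 13 mitochondrial genes (46.2%) had a pooled summit, against 42.5%. The part of neighbours and of TSS number in the difference between the classes was not tested further.

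**Figure D4:**
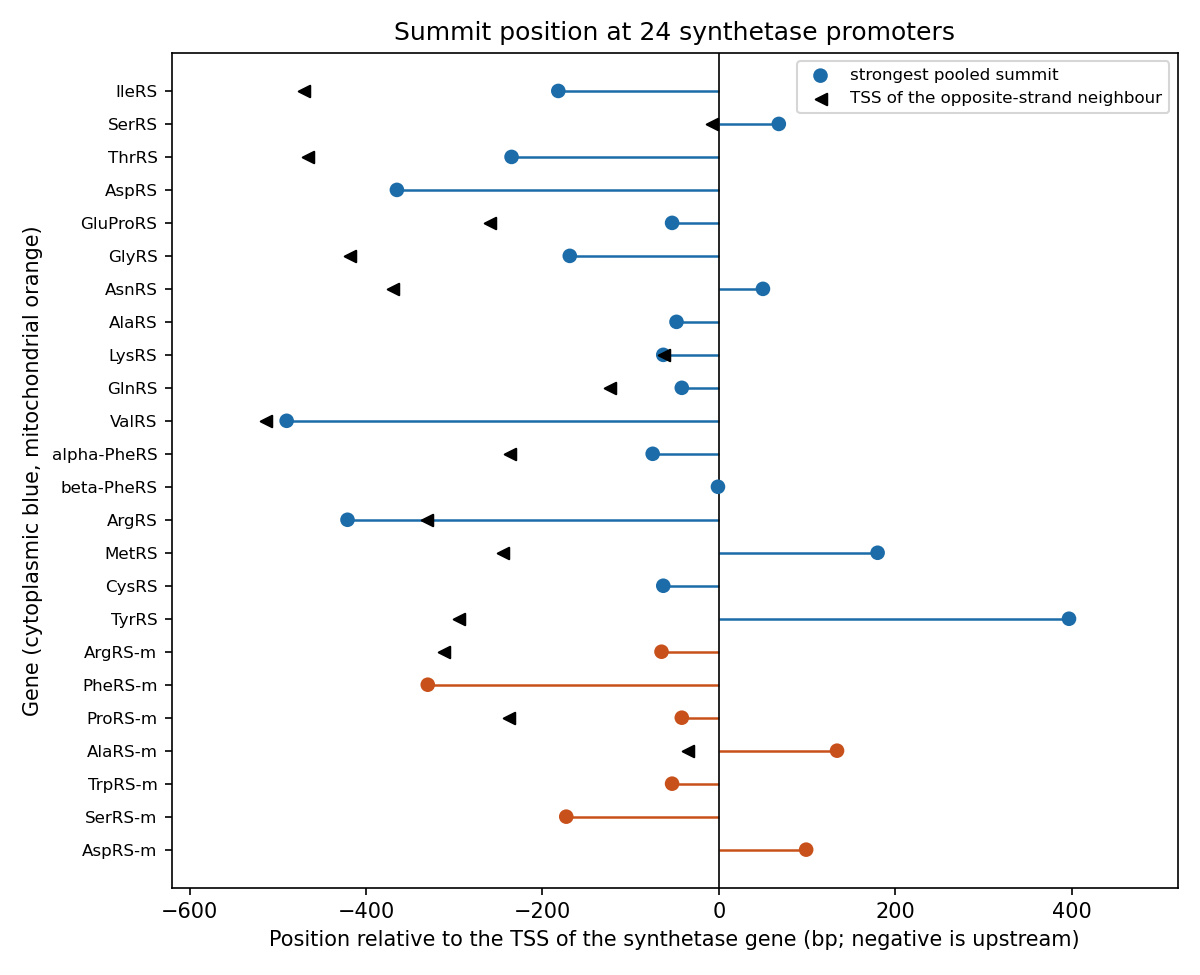
Position of the strongest pooled summit (circles) relative to the TSS of 24 synthetase genes (horizontal axis in bp, negative is upstream), cytoplasmic genes in blue above mitochondrial genes in orange, each class ordered by rank. Black triangles mark the TSS of the nearest opposite-strand protein-coding gene where the summit was measured from the synthetase gene's outermost TSS. Of the 24 circles 18 lie left of 0, and at LysRS the circle and the triangle lie 1 bp apart.

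Promoter sequence in the 250 bp upstream of the outermost TSS was searched for 9 short motifs, 7 on both strands and 2 at the TSS on the gene's strand. The DRE (TATCGATA), bound by the factor Dref at many promoters of proliferating cells, was present at 4 of 20 cytoplasmic genes (20%: AlaRS, ArgRS, IleRS and TrpRS), at none of the 15 mitochondrial genes and at 8% of all protein-coding promoters. Of those 4, only IleRS had an optimal summit, and its DRE lay outside the printed stretch; TrpRS had no pooled summit. The DRE core CGATA, which every DRE contains, was present at 13 cytoplasmic (65%), 6 mitochondrial (40%) and 42.6% of all promoters. The E-box CAGCTG was present at 8 cytoplasmic (40%) and 3 mitochondrial genes (20%), against 13.4%. CACGTG, the E-box bound by Myc with Max, was present at GlnRS and LeuRS-m, against 2.86%.

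GAGAG, the core of the site of the GAGA factor, was present at 3 cytoplasmic and 2 mitochondrial genes (14.3% of all members), against 25.7% of all promoters. The motif-1 core GGTCACAC was present at beta-PheRS, AsnRS-m and ProRS-m (8.57%), against 4.21%. TATAAA was present at 12 cytoplasmic (60%) and 7 mitochondrial genes (46.7%), against 43%. On the gene's strand within 10 bp of the TSS, the initiator TCAGT was present at none of the 35 genes and at 12.2% of all genes. A TCT initiator (TCTTT or CCTTT), the form typical of ribosomal protein genes, was present at ThrRS and TyrRS, against 3.43%. Median GC content of the upstream 250 bp was 33.4% for cytoplasmic genes, 34.8% for mitochondrial genes and 37.2% for all protein-coding genes. Genes with an optimal summit as a whole held the DRE in 10.2%, CAGCTG in 18.5% and GAGAG in 32.5% of cases. A match is a description of letters in the window, and binding of any of these factors was not measured.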

How the data were processed

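ChIP-seq was done on whole embryos, 3 biological replicates of 1 group, numbered as in the labels. The deposited files were peak lists. Per the submitters' file list, the authors called peaks in each replicate against 1 control file and once more on the 3 replicates together, and the optimal list was drawn from both kinds of list. No source used here gives the aligner, the peak caller or the threshold behind the optimal list. In each deposited list the signal is the peak's own value from the authors' caller, and it served only to rank peaks within that list. Depth is unknown, so no interval or limit of detection is given. The dm3 lists and the p- and q-value columns were not used.

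Members were taken by symbol from Ensembl release 115, whose chromosomes have the lengths of dm6, and coordinates are written from 1. A gene's strongest summit within 500 bp of any annotated TSS gave its rank, signal and position. It was taken anew in each list, so the replicates can rank different summits of the same gene. Replicate lists were also shortened to 3545 peaks. The difference of the class shares over replicates had a two-sided exact sign-flip permutation test. No set test was run, and shares of all protein-coding genes stand beside those of the members. Motif letters and printed sequence came from the RefSeq Release 6 assembly. Any member could be named, as could genes sharing a member's summit and 7 partner genes. Members and lists were chosen with earlier results of these data known. Counting was tested on simulated lists. Python 3.11.15, numpy 2.4.6, pandas 2.3.3, scipy 1.17.1 and matplotlib 3.10.9 were used.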

Additional observations from a re-analysis of the deposited data

How the results depend on the processing

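The order of the classes in the pooled list held in each of 6 settings, some of them subsets of the genes, with a difference of 18.3 to 50 percentage points. This difference was taken up after seeing the data, while the windows of 200 and 1000 bp had been planned for the counts. The 50 points came from genes without an opposite-strand neighbour, 3 of 3 cytoplasmic and 4 of 8 mitochondrial. The order in the short lists did not always hold. The optimal shares, 15% for cytoplasmic and 6.67% for mitochondrial genes, became 5% and 6.67% when a peak had to cover the TSS. The shares were also 5% and 6.67% when optimal peaks had to overlap the strongest 3545 peaks of both replicates 1 and 3. The same 5% and 6.67% arose for the shortened lists of all 3 replicates with a window of 1000 bp, and for that of replicate 1 with a window of 200 bp. The causes were not tested. For changed rules on the optimal list, and for replicate lists cut at other lengths or read with other windows, no share of all protein-coding genes is given. Those counts compare the classes only and cannot be set against such a share. Counting a gene only when an optimal peak covered a TSS gave 2 members (ArgRS-m and SerRS), of which 1 was cytoplasmic; a window of 1000 bp gave 2 mitochondrial members with LeuRS-m, and the stronger part of the optimal list gave 0. With a replicate left out, only optimal peaks that shared a base with the strongest 3545 peaks of both other replicates were kept. The optimal list itself still came from all 3 replicates, and the main count has no such filter. The filter gave 2 members for each replicate left out: 1 to 2 cytoplasmic and 0 to 1 mitochondrial, with IleRS in every case. Presence in all 3 shortened lists (1 gene) became 0 for the strongest 1000 peaks, 8 for the strongest 10000 (7 cytoplasmic and 1 mitochondrial) and 13 for the whole lists (10 and 3); with a window of 1000 bp it became 2, of which 1 was mitochondrial. The mean difference over the shortened lists, 12.2 percentage points, was 1.67 for the strongest 1000 peaks, 28.9 for the strongest 10000 and 5.83 to 16.7 with 1 replicate left out. The median rank of cytoplasmic genes was 14878 in replicate 1. A mitochondrial median had no value in the pooled list and in replicates 1 and 3, where it fell beyond the list. With 3 replicates, depth unknown and control libraries not analysed here, a gene without a listed summit is not shown to be unbound. A gene with a summit only below the optimal limit is likewise not shown to be bound.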
